A study of Capra hircus with 9 samples.

Results

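The BPI fold genes, also called the PLUNC genes, encode secreted and membrane-associated relatives of the bactericidal/permeability-increasing protein (BPI) and of the lipopolysaccharide-binding protein (LBP). All of these proteins are built on a curved domain with a pocket for lipids. The short members (the BPIFA proteins) carry 1 such domain and the long members (the BPIFB proteins) carry 2. In mammals they are made by the salivary glands and by the lining of the nose, mouth and upper airways, and some coat the surface as surfactants or bind bacterial products. Ruminants have extra short members: SPLUNC2B is the gene of the salivary protein known in cattle as BSP30b, a relative of the parotid secretory protein.

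The levels of these genes were followed in 9 submandibular glands of female Lubo goats, with 3 goats in each of 3 age groups (1-month, 12-month and 24-month). The goats were healthy, received no treatment other than fasting and anaesthesia with xylazine before slaughter, and were raised under the same conditions, so age was the only labelled difference between the groups. Each library was made from the ribosomal RNA-depleted RNA of 1 gland. A gene was included when its symbol was SPLUNC2B or began with BPIF, or when its product was described as a BPI fold, PLUNC or BSP30 protein. LATH was added because its product is described as a BPIFA4P protein. This gave 13 of 21222 genes, with 23 of 52739 transcripts. SPLUNC2B and BPIFB1 were chosen by their measured CPM in these libraries, so their levels are given as a description with no test. The other 11 genes were found by name. The members, LATH among them, were chosen with earlier results of these data known, so the tests of these genes are not independent of the data.

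The files hold 2 genes of the SPLUNC2B type. The gene called SPLUNC2B here is LOC102170799, whose new transcript carries that symbol and whose product is described as SPLUNC2B-like. The second, LOC102171351, has a product described as SPLUNC2B and no such symbol. LOC106502777 has a product described as the long PLUNC protein 4, the same name that is used for BPIFB4. Near-identical copies can share reads, so the split of counts between the genes of each pair is uncertain. BPIFA2, the parotid secretory protein gene, had no transcript assigned to it among those counted, so it was not analysed here. Whether reads of BPIFA2 were counted for SPLUNC2B was not tested.

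The libraries held 11546808 to 24901065 expected counts. Levels are given as CPM, counts scaled to a common library total with TMM factors, a method that sets the bulk of genes equal between libraries. On this scale 3 counts, the limit below which a gene is treated as not detected, stood at 0.145 to 0.190 CPM. CPM are not corrected for transcript length, so levels are compared between ages and not between genes.

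The glands of the 1-month-old goats differed from the others in their makeup. The geometric mean of 16 acinar genes (the secretory cells, such as the water channel AQP5) was 90.8, 1.87 and 73.0 CPM in the 1-month replicates 1 to 3, against 222 to 238 CPM at 12 months and 211 to 252 CPM at 24 months. AQP5 stood at 0.49 CPM in 1-month replicate 2 and at 128 to 1047 CPM in the other libraries. The summed level of 8 thymus genes, such as the recombinase gene RAG1, was 1090 to 6795 CPM at 1 month against 3.13 to 11.5 CPM at the other ages. It was highest in 1-month replicate 2. Of 7 neutrophil genes, the sum was 10.3 to 698 CPM at 1 month and 0.47 to 3.56 CPM later. The 6 upper airway genes found summed to 3.38 to 6.10, 3.41 to 12.2 and 1.75 to 14.3 CPM at 1, 12 and 24 months. Of these, SCGB3A2 was at 0 in every library. MUC5AC, the airway mucin of the same list, was 0.78 to 1.41 CPM at 1 month and 1.25 to 12.3 CPM at 24 months and was called higher from 1 to 24 months (log2 fold change 2.98, SE 0.83, edgeR adjusted p = 0.0395). Other genes of the list did not rise. FOXJ1 was 0.14 to 2.57 CPM at 1 month and at most 0.05 CPM later, and SCGB1A1 was seen only at 1 month. DNAH5 was fitted lower from 1 to 24 months and not called (-2.97, SE 1.02, edgeR adjusted p = 0.0753). CCDC39 differed by -0.05 (SE 0.85). 1-month replicate 2 is therefore labelled as submandibular gland but was nearly without acinar transcripts, and results that rest on it are also given without it. In bulk tissue, fewer acinar cells and less RNA per cell cannot be told apart. The part that tissue makeup played in the values below was not tested. Where a ratio to the acinar genes is given, it is a description.

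SPLUNC2B had the widest range of level among the BPI fold genes. It stood at 56.5, 42.0 and 9.78 CPM in the 1-month-old goats. The 12-month-old goats had 29081, 35530 and 314 CPM. The 24-month-old goats had 151903, 126698 and 46425 CPM. The 3 ages did not overlap in any pair, and the lowest 12-month library was still above every 1-month library. The group means were 36.1 ± 23.9, 21642 ± 18750 and 108342 ± 55083 CPM (SD, n = 3 each). The fitted log2 fold change (older minus younger) was 9.27 (SE 1.97) from 1 to 12 months, 11.65 (SE 1.56) from 1 to 24 months and 2.37 (SE 1.12) from 12 to 24 months. Without 1-month replicate 2 the first and second of these were 9.35 (SE 2.38) and 11.77 (SE 1.27).

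**Figure D1:**
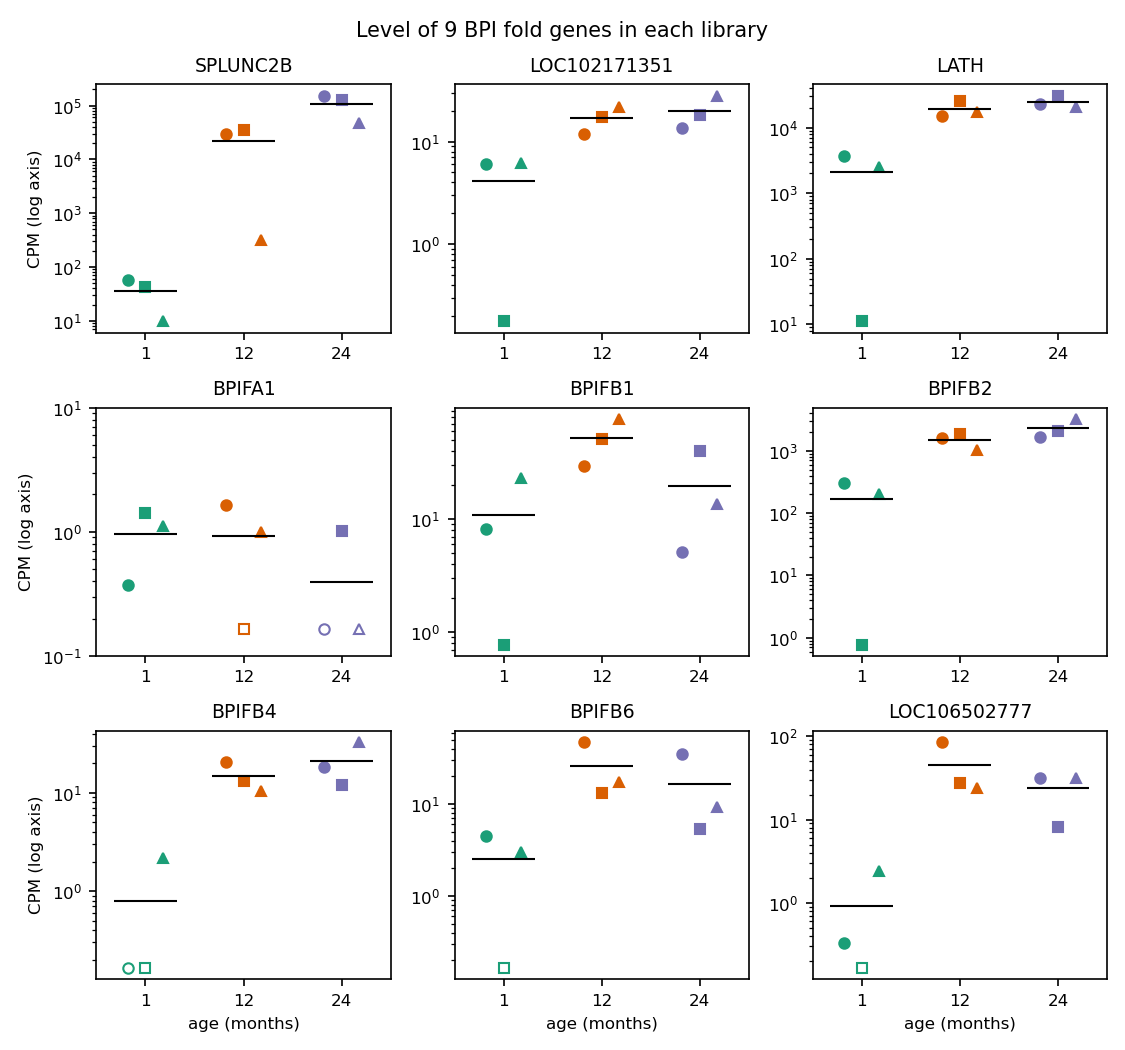
Level of 9 BPI fold genes in each library, in CPM on log axes that differ between panels, against age in months. Circles, squares and triangles are replicates 1, 2 and 3, black lines are group means, and open symbols mark values below 3 counts, drawn at the mean CPM of 3 counts. SPLUNC2B spans 9.78 to 151903 CPM, and the square at 1 month is low in LATH, BPIFB2, BPIFB1 and LOC102171351.

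One 12-month library set the spread of SPLUNC2B. Replicates 1 and 2 of that age were 92.6-fold and 113-fold above replicate 3. Without replicate 3 the 12-month mean was 32306 ± 4561 CPM (SD, n = 2), the ratio of means was 895 in place of 600 between 1 and 12 months, and 3.35 in place of 5.01 between 12 and 24 months. Among 13228 genes with a 12-month level over 10 times that of 3 counts, the median ratio of the highest to the lowest 12-month library was 1.30. Counting SPLUNC2B itself, 10 of these genes had a ratio at least as high as that of SPLUNC2B, which is given as a description. BPIFB2, BPIFB4 and LOC106502777 were also lowest in this library among the 12-month libraries, while BPIFB1 and LOC102171351 were highest there. LATH was 15019, 25392 and 17137 CPM in the 12-month replicates 1 to 3. The highest 12-month library was 1.69-fold above the lowest for LATH, 1.82-fold for BPIFB2, 1.997-fold for BPIFB4 and 3.52-fold for LOC106502777. The acinar mean of this library was 238 CPM, within the range of the other adult glands.

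SPLUNC2B took a large share of the adult libraries, by counts that are not corrected for length. It made up 12.4%, 10.5% and 4.08% of all expected counts in the 24-month libraries, where it ranked first of all genes in replicates 1 and 2. At 12 months it took 2.72%, 3.08% and 0.032%. At 1 month it took 0.0076%, 0.0046% and 0.0013%, or 155 to 901 counts, which is at most 0.0322% of the count in the highest library. Whether any of these counts came from other libraries was not tested, so the 1-month level and the fold changes against it are uncertain. All 13 genes together took 14.5%, 13.2% and 6.19% of the counts at 24 months and 0.553%, 0.0063% and 0.379% at 1 month. Within the family the share of SPLUNC2B was 1.38%, 72.8% and 0.354% at 1 month, 63.3%, 56.5% and 1.69% at 12 months and 65.9% to 86.1% at 24 months. The 72.8% belongs to 1-month replicate 2, in which the other members were low and SPLUNC2B was not.

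**Figure D2:**
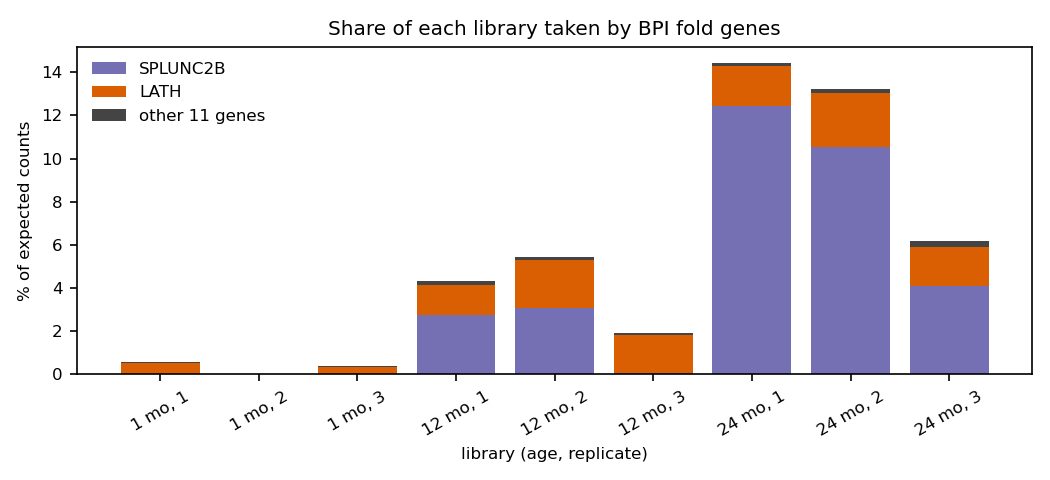
Percent of the expected counts of each library that SPLUNC2B, LATH and the other 11 BPI fold genes took, stacked, with the 9 libraries by age in months and replicate. The family reaches 14.5% in 24-month replicate 1, and in 12-month replicate 3 LATH makes up almost all of the 1.91%.

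Nearly all SPLUNC2B counts belonged to 1 transcript. This transcript, TCONS_00041827, was assembled from these reads and carried at least 99.987% of the gene's counts in every library. The annotated transcript XM_018056867.1 reached 69.3 counts at most. The gene's level therefore rests on the new model.

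The second gene of the SPLUNC2B type, LOC102171351, was low at every age. It stood at 6.06, 0.18 and 6.23 CPM at 1 month, at 11.7, 17.4 and 22.0 CPM at 12 months and at 13.4, 18.2 and 28.0 CPM at 24 months. The adult libraries were all above the 1-month libraries. The difference did not pass the test from 1 to 12 months (log2 fold change 2.13, SE 0.99, edgeR adjusted p = 0.159) or from 1 to 24 months (2.40, SE 0.96, edgeR adjusted p = 0.115).

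The genes found by name were tested with edgeR over all genes, and called at an adjusted p under 0.05 with an absolute log2 fold change over 2. From 1 to 12 months 12.0% of the 14701 genes tested were called, 2.23% as higher and 9.75% as lower at 12 months. Of the 11 genes found by name, 2 were called, both higher, 5 were tested and not called, and 4 were too low to be tested. From 1 to 24 months 13.9% of 14759 genes were called, 4.40% as higher and 9.46% as lower. Again 2 of the 11 genes were called, 5 were not and 4 were not tested. The called genes were BPIFB4 and LOC106502777 in both comparisons, and these comparisons share the 1-month libraries. Both genes passed the filter on low counts through their adult levels, so a call could only have been higher. Their number beside the shares of all genes is therefore a description.

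BPIFB4, a long member, was scarce at 1 month. It stood at 0.11, 0.11 and 2.19 CPM at 1 month, at 20.8, 13.3 and 10.4 CPM at 12 months and at 18.4, 12.1 and 32.8 CPM at 24 months. It rose from 1 to 12 months by 4.28 on the log2 scale (SE 1.10, edgeR adjusted p = 0.0393) and from 1 to 24 months by 4.84 (SE 1.10, edgeR adjusted p = 0.0200). The lowest adult library was well above the highest 1-month library, but 1-month replicates 1 and 2 were below 3 counts and the gene passed the filter on low counts through its adult levels.

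LOC106502777, the other gene with a long PLUNC 4 product, was also scarce at 1 month. It stood at 0.33, 0 and 2.38 CPM at 1 month, at 85.1, 27.2 and 24.2 CPM at 12 months and at 32.0, 8.09 and 31.5 CPM at 24 months. It rose by 5.75 on the log2 scale (SE 1.34, edgeR adjusted p = 0.0303) from 1 to 12 months and by 4.86 (SE 1.25, edgeR adjusted p = 0.0309) from 1 to 24 months. The adult libraries were all above the 1-month libraries and overlapped with each other. It too passed the filter through its adult levels. Both calls were lost from 1 to 12 months when 1-month replicate 1 or any one 12-month library was left out (edgeR adjusted p 0.0809 to 0.119 for BPIFB4 and 0.0803 to 0.0997 for LOC106502777). From 1 to 24 months they were lost without any one 24-month library, and for LOC106502777 also without 1-month replicate 1 (edgeR adjusted p 0.0523 to 0.0887 and 0.0626 to 0.112).

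LATH encodes latherin, known as the surfactant protein of horse sweat and saliva. It took 1.82% to 2.53% of the counts of the 24-month libraries. It stood at 3722, 11.1 and 2509 CPM at 1 month. The older goats had the 15019 to 25392 CPM given above at 12 months and 22841, 30464 and 20682 CPM at 24 months. All adult libraries were above all 1-month libraries, and 1-month replicate 2 was far below the other 1-month libraries. With all libraries the difference did not pass the test (log2 fold change 3.29, SE 1.55, edgeR adjusted p = 0.163 from 1 to 12 months, and 3.71, SE 1.52, edgeR adjusted p = 0.120 from 1 to 24 months). Without 1-month replicate 2 LATH rose by 2.62 (SE 0.37, edgeR adjusted p = 0.00297) and 3.09 (SE 0.49, edgeR adjusted p = 0.00227).

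BPIFB2, a long member, had the same order of ages as LATH. It stood at 302, 0.78 and 206 CPM at 1 month, at 1619, 1887 and 1037 CPM at 12 months and at 1678, 2060 and 3233 CPM at 24 months. The adult libraries did not overlap with the 1-month libraries. The log2 fold change was 3.25 (SE 1.503, edgeR adjusted p = 0.157) from 1 to 12 months and 3.92 (SE 1.46, edgeR adjusted p = 0.0943) from 1 to 24 months. Without 1-month replicate 2 it rose by 2.58 (SE 0.33, edgeR adjusted p = 0.00241) and 3.29 (SE 0.46, edgeR adjusted p = 0.00135).

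BPIFB6, another long member, was lower and more scattered. It stood at 4.55, 0.035 and 2.99 CPM at 1 month, at 47.1, 13.2 and 17.3 CPM at 12 months and at 35.3, 5.37 and 9.19 CPM at 24 months. The log2 fold change was 3.45 (SE 1.14, edgeR adjusted p = 0.0746) from 1 to 12 months and 2.84 (SE 1.15, edgeR adjusted p = 0.118) from 1 to 24 months. Without 1-month replicate 2 it rose by 2.79 (SE 0.64, edgeR adjusted p = 0.0152) from 1 to 12 months, and from 1 to 24 months the value was 2.24 (SE 0.76, edgeR adjusted p = 0.0512).

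**Figure D3:**
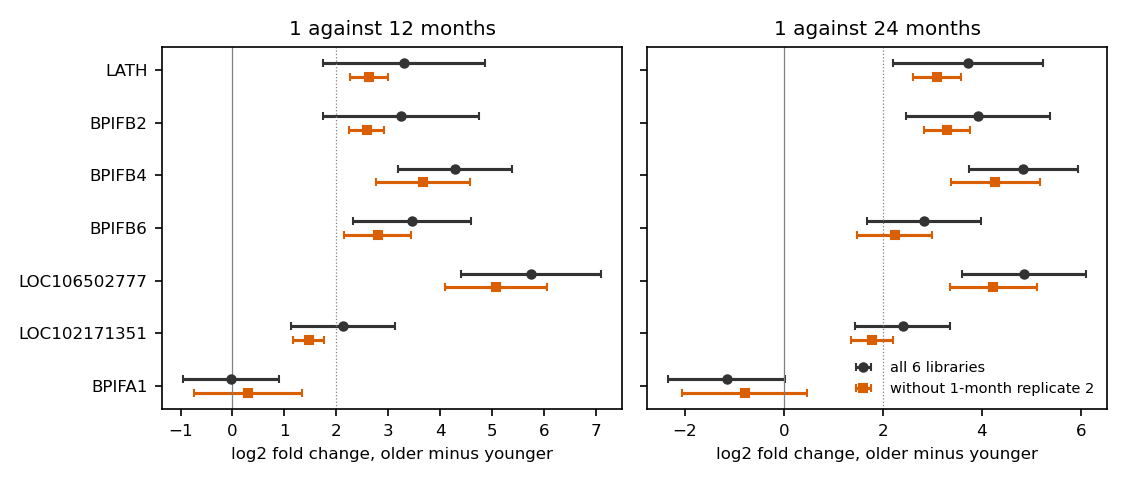
Fitted log2 fold change (older minus younger) with its SE for 7 BPI fold genes found by name, with all 6 libraries (black circles) and without 1-month replicate 2 (orange squares). The dotted line marks the fold threshold of 2, and the errors of LATH and BPIFB2 are narrower without that library, for example 0.37 in place of 1.55 for LATH from 1 to 12 months.

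More genes of the family were called without 1-month replicate 2. That library was left out after its low acinar level was seen, so these calls are a description and not independent support. From 1 to 12 months 5 of the 11 genes were then called, against 12.6% of all 15007 genes tested, of which 2.13% were higher at 12 months. From 1 to 24 months 4 were called, against 14.8% of 15136 genes, 4.53% higher. The added calls were LATH, BPIFB2 and, from 1 to 12 months, BPIFB6. Other secreted salivary genes gained calls too: 12 of 24 were called higher in each comparison, in place of 4 and 5. LOC102171351 had a log2 fold change of 1.47 (SE 0.30, edgeR adjusted p = 0.0105) from 1 to 12 months and 1.79 (SE 0.43, edgeR adjusted p = 0.0134) from 1 to 24 months, which is under the fold threshold.

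No BPI fold gene found by name passed the test between 12 and 24 months. Of all 14118 genes tested 0.00% were called by edgeR, and 1626 had an unadjusted p under 0.05. DESeq2 called 12 genes and the edgeR exact test 14. The log2 fold changes of the 7 genes tested were positive for 4 and negative for 3, with edgeR adjusted p of 0.417 to 0.681. LATH differed by 0.41 (SE 0.31) and BPIFB2 by 0.66 (SE 0.33). The untested 2.37 of SPLUNC2B was the widest of the family in this comparison.

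BPIFB1, the long member of airway goblet cells, did not follow SPLUNC2B. It stood at 8.24, 0.78 and 23.3 CPM at 1 month, at 29.3, 51.6 and 76.7 CPM at 12 months and at 5.06, 40.0 and 13.5 CPM at 24 months. The group means were 10.8 ± 11.5, 52.5 ± 23.7 and 19.5 ± 18.2 CPM (SD, n = 3 each). The 12-month libraries lay above the 1-month libraries without overlap. The 24-month libraries overlapped with both other ages, and the means at 1 and 24 months differed by less than their SD. The fitted log2 fold change was 2.39 (SE 1.00) from 1 to 12 months, 1.04 (SE 1.06) from 1 to 24 months and -1.37 (SE 0.64) from 12 to 24 months. Without 1-month replicate 2 the values against 1 month were 1.74 (SE 0.56) and 0.44 (SE 0.76). Its counts came from the new transcript TCONS_00040403 and the annotated XM_013968963.2. The latter held all 14.8 counts of 1-month replicate 2, and 0 counts in 5 of the 9 libraries.

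BPIFA1, the short member best known from the upper airways, was near the detection limit. It stood at 0.37, 1.41 and 1.11 CPM at 1 month, at 1.65, 0.11 and 1.01 CPM at 12 months and at 0, 1.02 and 0.15 CPM at 24 months. The ages overlapped, with a log2 fold change of -0.03 (SE 0.92, edgeR adjusted p = 0.983) from 1 to 12 months and -1.16 (SE 1.18, edgeR adjusted p = 0.524) from 1 to 24 months. The remaining 4 genes were too low to test. BPIFA3 had 0 counts in every library, and BPIFB3 had at most 3.21 counts. BPIFC had 4.13, 19.6 and 0.88 counts in the 1-month libraries and 0 in the adult libraries, and LOC102187691 had 5.39 counts in 1-month replicate 2 and 0 elsewhere. Up to 3 counts per library cannot be told from 0 at this depth.

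Since the acinar genes were also lower at 1 month, each level was divided by the geometric mean of the 16 acinar genes in the same library. The ratios are a description. For LATH the ratio was 41.0 and 34.4 in 1-month replicates 1 and 3, 63.6 to 114 at 12 months and 82.1 to 121 at 24 months, so both adult groups lay above those 1-month libraries, with means 2.21-fold and 2.76-fold higher, and overlapped with each other. For BPIFB2 the adult means were 2.14-fold and 3.15-fold above, again without overlap with 1 month. These are smaller than the 6.16-fold and 7.92-fold differences of LATH on the CPM scale without 1-month replicate 2. For SPLUNC2B the ratio was 0.62 and 0.13 in 1-month replicates 1 and 3 and 184 to 719 at 24 months. In 1-month replicate 2 the SPLUNC2B ratio was 22.4, above the 1.32 of 12-month replicate 3.

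The ratio of LOC102171351 was about level with age. It was 0.067 to 0.094 at 1 month, 0.050 to 0.092 at 12 months and 0.064 to 0.111 at 24 months, and all 3 ranges overlapped. BPIFB1 had ratios of 0.091 to 0.414, 0.124 to 0.322 and 0.024 to 0.159, which overlapped too. BPIFB4 and LOC106502777 were 4.09-fold and 10.7-fold above 1-month replicates 1 and 3 at 12 months and 5.68-fold and 5.67-fold above at 24 months. At 24 months the ratios of LOC106502777 overlapped with those 1-month libraries.

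**Figure D4:**
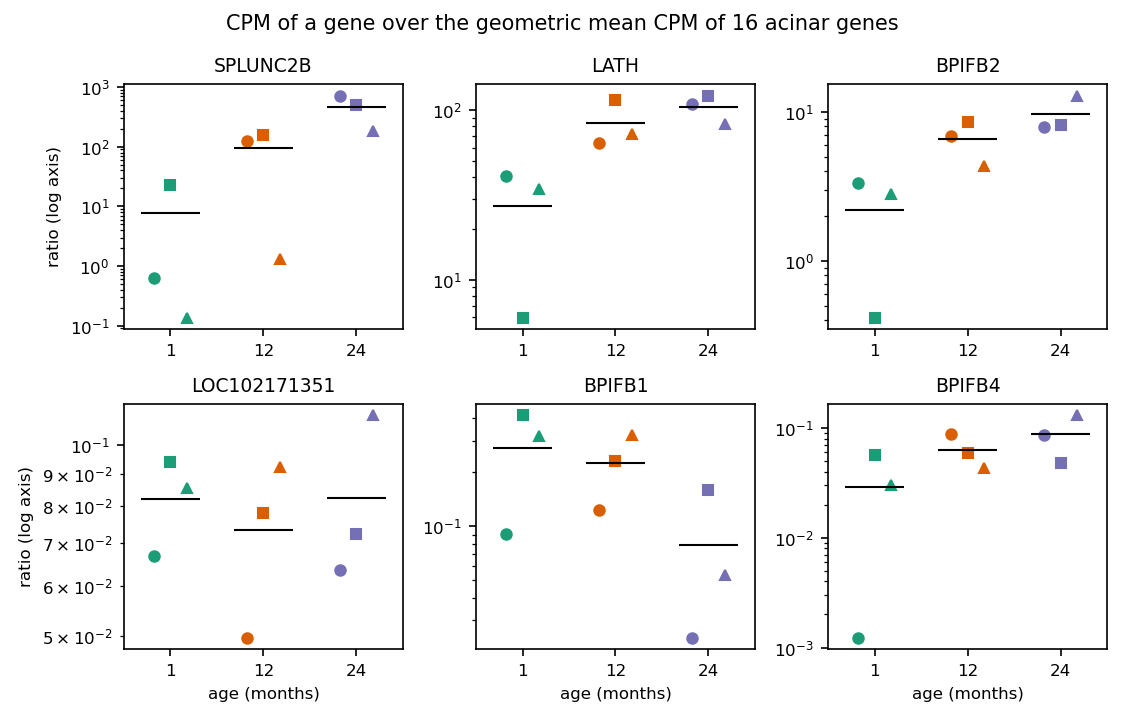
CPM of 6 BPI fold genes divided by the geometric mean CPM of 16 acinar genes in the same library, on log axes that differ between panels, against age in months. Circles, squares and triangles are replicates 1, 2 and 3 and black lines are group means. The ages overlap for LOC102171351 and BPIFB1, and the 1-month values of BPIFB4 in replicates 1 and 2 rest on fewer than 3 counts.

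In the goat annotation (assembly ARS1.2) 11 of the 13 genes lie between SUN5 and CDK5RAP1, among 19 annotated genes. BPIFC lies elsewhere and LATH was not placed. The order from SUN5 is BPIFB2, BPIFB6, BPIFB3, BPIFB4, LOC106502777, BPIFA2, LOC102171351, SPLUNC2B, BPIFA3, BPIFA1, BPIFB1 and LOC102187691. Among protein-coding genes the neighbours of SPLUNC2B are LOC102171351, which ranged from 0.18 to 28.0 CPM over the libraries, and BPIFA3, at 0 in all of them. CDK5RAP1, at the far edge, stood at 8.61 to 17.4 CPM in all libraries. LOC102171893, which lies between LOC102187691 and CDK5RAP1 and is outside the family by the naming rule, was 0.037, 0.42 and 0 CPM at 1 month, 2.35, 6.82 and 0.79 CPM at 12 months and 120, 87.0 and 0.36 CPM at 24 months. It was named after its values were seen. Its 24-month libraries overlapped with the other ages. From 12 to 24 months its fitted log2 fold change was 4.43 (SE 1.38), given as a description with no test.

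**Figure D5:**
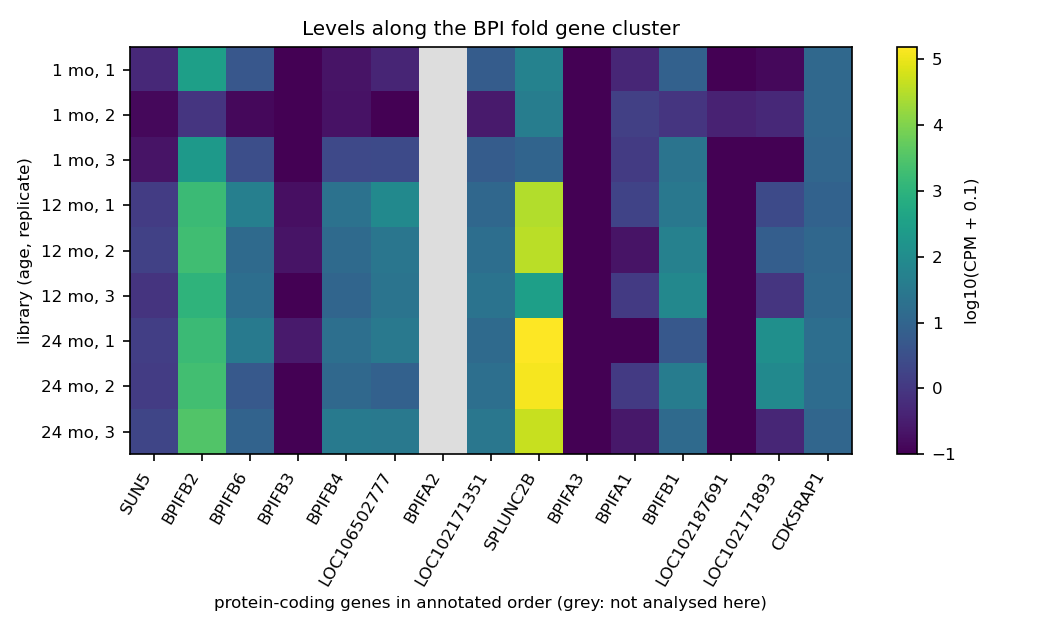
Level of the protein-coding genes from SUN5 to CDK5RAP1 in annotated order (columns, not to scale) in each library (lines, by age in months and replicate), as log10(CPM + 0.1). The SPLUNC2B column runs from 9.78 CPM in a 1-month library to 151903 CPM in a 24-month library, while BPIFA3 is at 0 and CDK5RAP1 is even across the ages at 8.61 to 17.4 CPM.

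Among the genes with a pattern most like SPLUNC2B over the 9 libraries were PRRT3 (r = 0.975), C3H1orf168 (0.972), NRG4 (0.970) and GCGR (0.963). The measure was the Pearson correlation of log2(CPM + 1) among 14975 genes, which shares libraries and depth between genes. C3H1orf168 was 0 at 1 month and at most 1.22 CPM, NRG4 was 0.11 to 1.19 CPM and GCGR 0 to 1.70 CPM. The lower of these values are at or near the limit of 3 counts. PRRT3 was 1.92, 0.49 and 0.83 CPM at 1 month, 29.7, 26.9 and 3.80 CPM at 12 months and 58.4, 80.8 and 93.6 CPM at 24 months, so it was also lowest in 12-month replicate 3 among the adult libraries. For BPIFB1 the likest were PPP1R3D (0.923), RGS8 (0.918), CNKSR3 (0.903), BCAR3 (0.900) and GFRA1 (0.900). RGS8 was 5.80, 0.21 and 5.68 CPM at 1 month, 11.2, 11.3 and 15.2 CPM at 12 months and 5.88, 13.4 and 5.32 CPM at 24 months.

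Among other secreted salivary proteins, 24 of 32 listed genes were found and all were tested. From 1 to 12 months 4 were called higher, namely MUC5B, LPO, CST6 and PIP, and 0 lower, against 2.23% higher and 9.75% lower of all genes. MUC5B, CST6 and PIP were 0.21 to 0.67, 0.25 to 0.67 and 0 to 3.05 CPM at 1 month. They passed the filter on low counts in this comparison through their 12-month levels. From 1 to 24 months MUC16 was called in addition, with 0 lower, against 4.40% higher and 9.46% lower of all genes. The median log2 fold change of the list was 2.66 and 2.65, against -0.02 and -0.01 over all genes. LPO, the salivary peroxidase, was 174, 9.73 and 98.0 CPM at 1 month and 4348 to 22659 CPM in the adult libraries. Without 1-month replicate 2, 12 genes of this list were called higher in each comparison, against 2.13% and 4.53% of all genes, with medians of 1.996 and 2.03 against -0.01 and 0.05. Of the 16 acinar genes 2 were called higher from 1 to 12 months and 3 from 1 to 24 months, against the same 2.23% and 4.40% of all genes, with medians of 2.28 and 2.46. Without that library 0 and 6 were called higher, against 2.13% and 4.53% of all genes, with medians of 1.67 and 1.84.

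The relatives BPI, LBP and PLTP, which lie outside the PLUNC group, were lower in the adult libraries by their fitted values. BPI itself, a neutrophil granule protein, was 43.1, 3.98 and 80.6 CPM at 1 month and 5.12 to 20.2 CPM in the adult libraries, with a log2 fold change of -1.73 (SE 0.92, edgeR adjusted p = 0.217) from 1 to 24 months. LBP was 5.21, 1.80 and 2.08 CPM at 1 month and 0, 0.11 and 0.21 CPM at 24 months, where it was at or near the limit of 3 counts. At 12 months it was 2.47, 0.055 and 0.13 CPM and was not called against 1 month (log2 fold change -1.71, SE 1.25, edgeR adjusted p = 0.337). From 1 to 24 months it was called lower (log2 fold change -4.67, SE 1.01, edgeR adjusted p = 0.0176), but it passed the filter on low counts through its 1-month levels. PLTP, the phospholipid transfer protein, was 83.7, 410 and 35.0 CPM at 1 month and 12.9 to 34.3 CPM in the adult libraries. The 410 CPM belongs to 1-month replicate 2. The log2 fold change of PLTP was -3.27 (SE 0.93, edgeR adjusted p = 0.0507) from 1 to 12 months and -2.96 (SE 0.91, edgeR adjusted p = 0.0548) from 1 to 24 months. Without 1-month replicate 2, 1 of BPI, LBP and PLTP was called lower from 1 to 12 months and 2 from 1 to 24 months. Of all genes 10.5% and 10.3% were then called lower. The neutrophil list was higher at 1 month too, as given above, and its part in the level of BPI was not tested.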

How the data were processed

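Per the labels, total RNA of 9 submandibular glands was depleted of ribosomal RNA and sequenced as strand-marked libraries on an Illumina instrument. The authors removed ribosomal reads with Bowtie2 (2.2.8), aligned with TopHat2 (2.1.1), assembled transcripts with Cufflinks and deposited RSEM expected counts per transcript, in which 3.49% of values above 0 are whole. The genome build and the strand setting of the counting are not given in the sources used here. RSEM shares reads between similar transcripts, which makes values of close paralogs uncertain.

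The table held 42686 known and 10053 new transcripts. Known transcripts were assigned to genes by gene ID (42652 matched) and new ones by protein accession or symbol, using RefSeq names of assembly ARS1.2. Expected counts were summed per gene and rounded. Ages were compared in pairs with edgeR 4.0.16 (filterByExpr, TMM, quasi-likelihood test) in R 4.3.3, with Benjamini-Hochberg adjustment over all genes tested. The study's additional FPKM limit was not applied. CPM use TMM factors over all 9 libraries. On counts simulated for the 12 and 24-month comparison, 188 of 200 genes changed by a log2 fold of 3 were called, with 8 false calls among 13905 genes tested.

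Named genes were the members, gene lists for secretory, duct, airway, thymus, neutrophil, muscle and fat cells, and the 5 genes most like SPLUNC2B and BPIFB1, of which 1 is not reported here. Members and lists were chosen with earlier results of these data known. The ratio to the acinar genes and the values without 1-month replicate 2 or 12-month replicate 3 for lists and means were added after seeing the data. Alternatives were other scalings, no filter, 1 fit over 9 libraries, DESeq2 1.42.0, the edgeR exact test, transcripts, the replicate number as a block, and each library left out. Libraries of 1 age differed by more than sampling noise (chi-square per degree of freedom 75.9 to 459), so no 2 libraries were counted as 1 sample. The 9 libraries come from separate goats. Salivary duct genes summed to 339 to 424, 1413 to 1838 and 1454 to 1879 CPM at 1, 12 and 24 months, muscle genes to 2.19 to 35.1, 1.11 to 59.6 and 1.81 to 2.58, and fat genes to 8.95 to 359, 27.4 to 121 and 11.4 to 61.7. Of 10 duct genes tested from 1 to 12 months, 8 were fitted higher and 2, KRT5 and KRT14, lower. KRT5 and KRT14 were highest in 1-month replicate 2, at 131 and 52.9 CPM. SLC4A4 was 19.1 to 41.5 CPM at 1 month and 382 to 1005 CPM later, so it weighs heavily in the duct sums.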

Additional observations from a re-analysis of the deposited data

How the results depend on the processing

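The fitted log2 fold change of SPLUNC2B kept its direction under all alternatives run. With 1 library left out it ranged from 8.71 to 9.86 from 1 to 12 months, from 11.19 to 12.12 from 1 to 24 months and from 1.75 to 2.96 from 12 to 24 months. Its mean share of counts with 1 library left out ranged from 0.00295% to 0.00609% at 1 month, 1.38% to 2.90% at 12 months and 7.30% to 11.5% at 24 months. The number of genes called was 1761 from 1 to 12 months and 2045 from 1 to 24 months. It moved to 829 and 453 with transcripts in place of gene sums, and to 157 to 1892 and 351 to 2247 with 1 library left out. From 12 to 24 months, 0 genes became 2 with no filter on low counts, 12 with DESeq2 and 14 with the exact test, and 0 to 167 with 1 library left out, the 167 without 24-month replicate 1. The replicate numbers did not pair the goats, since same-numbered libraries did not deviate together in every pair. The replicate block gave 1018 genes from 1 to 12 months and 12 from 12 to 24 months, and the calls of BPIFB4 and LOC106502777 from 1 to 12 months were lost under it (edgeR adjusted p = 0.0625 and 0.0534), while BPIFB6 from 1 to 24 months gained one (3.27, edgeR adjusted p = 0.0355). The DESeq2 Wald test called LATH, BPIFB2 and BPIFB6 in both comparisons with 1 month, and LOC102171351 from 1 to 24 months. The exact test called BPIFB6 from 1 to 12 months (adjusted p = 0.0201), and BPIFB2 and LATH from 1 to 24 months (0.0232 and 0.0307). Signs turned for values that had not passed the test: BPIFA1 from 1 to 12 months had 0.30 without 1-month replicate 2, 0.05 without 1-month replicate 3 and 0.50 without 12-month replicate 2 (range -0.72 to 0.50 with 1 library left out), BPIFB6 from 12 to 24 months had 0.12 without 12-month replicate 1 (range -1.78 to 0.12), and LOC102171351 from 12 to 24 months had -0.11 without 24-month replicate 3 (range -0.11 to 0.48). From 1 to 24 months upper-quartile factors moved the median log2 fold change of all genes from -0.01 to -0.12. It was -0.14 with no filter and -0.21 with the DESeq2 Wald test, each over 18170 genes in place of 14759. These shifts are well under the changes called. The cause of these differences was not tested, and fewer samples entered where a library was left out. With 3 goats an age and 1 gland library each, levels near 3 counts are not resolved.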
